A study of Homo sapiens with 6 samples.

Results

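The genes described here are 58 members of the DNA repair machinery, given as a list that covers base excision, nucleotide excision, homologous recombination, the Fanconi pathway, end joining, and break sensing with checkpoint signalling. Their mRNA levels were compared between human Caco2 colon cancer cells resistant to methotrexate (MTX), an antifolate that inhibits dihydrofolate reductase, and the parental Caco2 cells. The resistant cells had been selected with stepwise concentrations of MTX, grew in 10 µM MTX and were kept in a selective medium without glycine, hypoxanthine and thymidine, with dialyzed serum. The parental cells are sensitive to MTX and were kept in Ham's F12 medium with fetal bovine serum, so that resistance, the drug and the medium cannot be told apart. Each group had 3 Affymetrix HG U133 Plus 2.0 arrays. Of the 58 members, 54 had a probe set of their own, and all 54 passed the filter on low signals (a mean of at least 1 array median), among 11849 genes that passed it and 19775 named genes in all. NEIL1, a glycosylase for oxidized bases, was left out because its probe sets carry more than 1 gene name. The other 3 members left out, 1 of recombination and 2 of the Fanconi pathway, had no probe set under their own name in the annotation used and were not analysed here.

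Cells repair DNA by routes that divide the work by the kind of damage. Base excision repair removes single altered bases, among them the uracil that enters DNA when antifolates starve cells of thymidylate: a glycosylase cuts out the base, an endonuclease opens the strand, and a polymerase and a ligase close it. Nucleotide excision removes bulky lesions as a short stretch, the Fanconi pathway opens crosslinks between strands, and broken ends are joined directly or copied from the sister chromatid by homologous recombination. Much of the recombination machinery is made in S phase and is more abundant in cycling cells.

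Signals are given as multiples of the median signal of the same array, and they were not compared between different genes because probe sets differ in their response. Changes are log2 ratios of resistant over parental cells with their SE, and a gene placed at a number without a unit had that log2 change. Correlations over the probe sets that passed the filter were 0.968 to 0.971 among the resistant arrays. Parental array 3 stood apart from its group. Its correlation was 0.935 to 0.939 against resistant arrays and 0.946 to 0.949 against parental ones, whereas parental arrays 1 and 2 reached 0.914 to 0.929 against resistant arrays. The 3′ to 5′ signal ratio of the GAPDH control probe sets was 0.904 to 0.967 in resistant arrays and 0.955 to 0.987 in parental arrays. Among 8 measured genes of the intestinal epithelium, 5 were called higher in resistant cells (7.37% of all genes were). The actin bundling protein VIL1 was at 39.0, 38.4 and 37.8 array medians in resistant arrays and 24.0, 21.7 and 20.7 in parental arrays. KRT19 at 0.57, EPCAM at 0.12 and CDH1 at -0.21 did not pass the test, and CDX1 and CDX2 were below the filter. Of the fibroblast and leukocyte markers that passed the filter, LUM reached 3.27, 2.92 and 1.5 array medians in resistant arrays and 0.198, 0.352 and 0.265 in parental arrays, and LYZ, which intestinal epithelium can also make, reached 493, 503 and 548 in resistant arrays and 282, 352 and 293 in parental arrays. The other such markers were not higher, with COL1A1 at 3.18, 3.16 and 3.59 in resistant arrays and 3.68, 3.78 and 3.57 in parental arrays, CD14 at a log2 change of -0.13 and the endothelial PECAM1 at -0.19. The part of these differences in the results below was not tested. In cell populations such as these, fewer cells of a type and less RNA per cell cannot be told apart.

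Few repair genes passed the test between resistant and parental cells. At an adjusted p below 0.05 (limma, Benjamini-Hochberg adjustment over all tested probe sets), 3 of the 54 measured members were higher in resistant cells, NTHL1, PARP1 and CHEK2, a share of 5.56% where 7.37% of all 11849 genes were called higher. None was called lower (0 of 54), against 5.05% of all genes. At an unadjusted p below 0.05, 13 members were higher and 3 lower (29.6% together, against 30.8% of all genes). A plain equal-variance comparison of the same log2 values called 0 members in either direction. It called 120 genes higher and 72 lower in all. That comparison was not the study's own procedure, which first filtered genes by a control strength taken from an error model. None of the 3 called changes reached 2-fold, a size that 5.54% of all genes passed together with the test. The groups did not overlap for 19 members, 17 higher and 2 lower in resistant arrays, or 35.2%, close to the 35.5% of all genes (20.2% higher and 15.2% lower). The signs were less even, since 40 of 54 members (74.1%) had a positive log2 change against 51.5% of all genes, and the median log2 change was 0.19 for the members and 0.02 for all genes. These counts describe the list and carry no test.

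**Figure D1:**
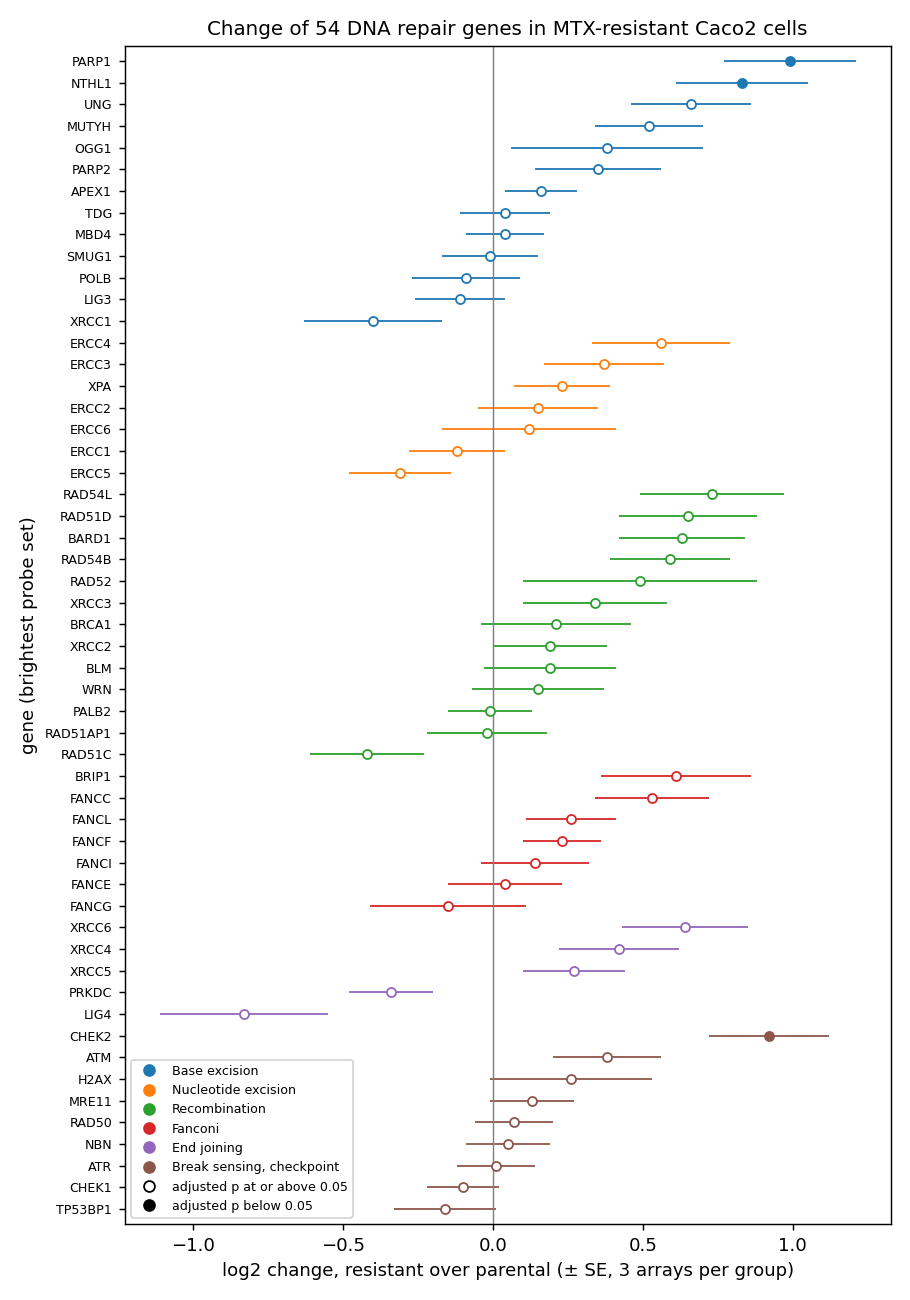
Change of the 54 measured repair genes, as the log2 ratio of resistant over parental cells on the horizontal axis with bars of ± 1 SE (3 arrays per group), ordered by repair route and, within it, by size. Filled points mark PARP1, NTHL1 and CHEK2, the 3 genes past an adjusted p of 0.05, and the other 51 are open.

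The absence of a call was not the same as the absence of a difference. For the 51 members that did not pass the test, the 95% confidence interval of the change lay within 2-fold in either direction for 40 and reached past 2-fold for 11. The median SE was 0.19 on the log2 scale, the same as over all genes. In absolute size, 40 of the 54 members (74.1%) had a log2 change below 0.5 in size, against 71.2% of all genes.

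PARP1, the nuclear enzyme that senses single-strand breaks and builds poly(ADP-ribose) chains on them, had the highest log2 change of the 54 members. Its signal was 39.6, 42.3 and 36.9 array medians in resistant arrays, against 20.8, 13.8 and 27.3 in parental arrays. Every resistant array was above every parental one, and the parental arrays spread far more widely. The change was 0.99 ± 0.22 on the log2 scale (SE, n = 3 per group), or 1.99-fold, at an adjusted p of 0.0221. The call was lost without resistant array 1, 2 or 3 (adjusted p = 0.092, 0.1 and 0.0743) and without parental array 1 (adjusted p = 0.0599), and also without the intensity trend (0.0828). RefSeq names 2 pseudogenes after PARP1.

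CHEK2 encodes the kinase that ATM activates at broken ends to stop the cell cycle. It reached 23.5, 25.4 and 22.9 array medians in resistant arrays, against 14.1, 9.27 and 15.4 in parental arrays. The groups were again apart, with parental array 2 the lowest. The change was 0.92 ± 0.20 (1.9-fold, adjusted p = 0.0182), and the call was lost without resistant array 1, 2 or 3 (adjusted p = 0.0796, 0.0876 and 0.0685) and without the intensity trend (0.0657). Its probe set can read several transcripts, and 6 pseudogenes carry its name in RefSeq, so part of the signal could come from other transcripts.

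NTHL1, the glycosylase that removes oxidized pyrimidines, was measured at 14.4, 17.1 and 18.3 array medians in resistant arrays, against 7.34, 8.51 and 13 in parental arrays. The lowest resistant array lay only slightly above parental array 3. The change was 0.83 ± 0.22 (1.77-fold, adjusted p = 0.0417). Leaving out any resistant array ended the call (adjusted p = 0.0962, 0.146 and 0.15), as did leaving out parental array 1 or 2 (adjusted p = 0.13 and 0.113), whereas without parental array 3 the change was 1.07 at an adjusted p of 0.000612. The call also ended with quantile normalization (adjusted p = 0.0513), without further scaling (0.0665), without the filter (0.0531) and without the intensity trend (0.106).

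The promoters of 46 of the 54 measured members, each as the 250 bases before a RefSeq transcription start on GRCh38.p14, were searched on both strands for letters linked to cell cycle genes. SMUG1, POLB, RAD54B, WRN, FANCI, XRCC5, PRKDC and NBN had no entry. The E2F letters TTTCCCGC, TTTCGCGC, TTTGCCGC or TTTGGCGC stood in 2 of 65 windows (3.08%), those of UNG and FANCC, against 2.79% of 35116 windows of all genes. CCAAT, the letters read by the factor NF-Y, stood in 31 windows (47.7%) against 32.0%, and TTTGAA, the core of the cell cycle homology region, in 9 (13.8%) against 13.3%. Some windows of the same gene overlap, so a site can be counted more than once. The 31 windows with CCAAT belong to 25 genes. Of the 3 called genes, CHEK2 alone held any of these letters, while PARP1 and NTHL1 held none. A match is a description of these letters and not of a bound site. The CHEK2 window is shown as the only one of the called genes with matches, and the window before the downstream of the UNG starts, chosen after its values were seen, because it holds all 3 kinds. Capitals mark the matches, which appear as ATTGG where CCAAT lies on the opposite strand and as TTCAAA where TTTGAA does.
CHEK2 (chr22:28741821-28742070, minus strand): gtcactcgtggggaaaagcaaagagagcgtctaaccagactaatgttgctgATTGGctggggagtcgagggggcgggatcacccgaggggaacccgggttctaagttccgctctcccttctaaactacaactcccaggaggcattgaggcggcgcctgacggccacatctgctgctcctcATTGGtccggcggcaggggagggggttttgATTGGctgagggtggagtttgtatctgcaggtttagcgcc
UNG (chr12:109097922-109098171, plus strand): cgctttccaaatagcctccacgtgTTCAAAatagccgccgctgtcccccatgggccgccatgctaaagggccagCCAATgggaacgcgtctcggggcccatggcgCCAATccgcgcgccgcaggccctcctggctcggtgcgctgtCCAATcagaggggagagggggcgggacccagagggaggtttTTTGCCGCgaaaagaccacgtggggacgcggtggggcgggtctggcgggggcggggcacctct
The CHEK2 window holds 3 CCAAT letters, all on the opposite strand to the gene. The UNG window holds 3 CCAAT letters, 1 TTTGAA and 1 E2F match, the run TTTGCCGC, which begins 63 bases before the start (position -63).

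Among the uracil glycosylases, which start the excision of the base that antifolates bring into DNA, UNG had the largest log2 change. UNG, the main enzyme of this kind at replication forks, had 74.8, 68.3 and 78.1 array medians in resistant arrays, against 46.1, 34.6 and 63.0 in parental arrays. All 3 resistant arrays were above all 3 parental ones, with parental array 3 nearest to them. The change of 0.66 ± 0.20 (95% interval 0.23 to 1.10) missed the threshold at an adjusted p of 0.0589, and without parental array 3 it was 0.88 at an adjusted p of 0.000691. Without parental array 2 it was 0.45 (adjusted p = 0.134), and the other arrays left out singly gave adjusted p-values of 0.139 to 0.182. RefSeq names 3 pseudogenes after UNG, whose transcripts its probe set of several transcripts could also read. The other glycosylases of uracil and thymine mismatches lay close to 0 by their brightest probe sets. SMUG1, which acts on uracil outside replication, had 10.7, 11.7 and 12.3 array medians in resistant arrays and 13.6, 10.2 and 11.4 in parental arrays, a change of -0.01 (95% interval -0.38 to 0.35). TDG, the thymine and uracil glycosylase of G mismatches, had 52.6, 47.8 and 47.7 in resistant arrays and 39.9, 57.5 and 48 in parental arrays (0.04, 95% interval -0.29 to 0.38). MBD4, which works at methylated CpG sites, had 35.1, 32.3 and 35.9 in resistant arrays and 35.2, 31.2 and 34.1 in parental arrays (0.04, 95% interval -0.24 to 0.32). By these probe sets all 3 genes overlapped between groups, and the intervals include changes of up to 0.38 on the log2 scale and do not reach 2-fold. Dimmer probe sets were at 0.33 ± 0.16 for SMUG1, 0.26 ± 0.19 for TDG and -0.05, -0.32 and -0.16 for MBD4, none past the test.

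The glycosylases of oxidized bases were positive in sign. MUTYH, which removes adenine paired with oxidized guanine, had 11, 14.1 and 12.8 array medians in resistant arrays and 10.3, 8.75 and 7.47 in parental arrays. The groups did not overlap, and the change of 0.52 ± 0.18 had an adjusted p of 0.0924. OGG1, which removes the oxidized guanine itself, overlapped between groups at 0.38 ± 0.32, where parental array 2 was far below the rest (2.02 array medians).

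The steps after the glycosylase showed no shared direction. APEX1, the endonuclease that opens the strand at the empty site, had 74.6, 78.9 and 80.5 array medians in resistant arrays and 71.8, 77.3 and 61.4 in parental arrays, a change of 0.16 ± 0.12. XRCC1, the scaffold of the single-strand break complex, was negative at -0.40 ± 0.23 (adjusted p = 0.302), with 4.56, 5.38 and 5.32 array medians in resistant arrays and 9.36, 5.05 and 6.29 in parental arrays. That difference rested mostly on the high parental array 1, without which it was -0.15. POLB, the gap-filling polymerase, was at -0.09, LIG3, the ligase that binds XRCC1, at -0.11, and PARP2, the smaller relative of PARP1, at 0.35 ± 0.21 (adjusted p = 0.307). The 5 tested probe sets of LIG3 did not share a sign, from -0.57 to 0.40, and none passed the test. In all, 13 measured members of base excision repair had a median log2 change of 0.16, with 2 called higher (7.37% of all genes were) and 0 lower (5.05%).

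Nucleotide excision repair had 7 measured members, none of which passed the test, and a median of 0.15. ERCC4, the nuclease subunit that cuts on the 5′ side of a lesion, had 3.50, 3.49 and 3.30 array medians in resistant arrays and 2.32, 2.91 and 1.88 in parental arrays. Its resistant arrays were all above its parental arrays, with a change of 0.56 ± 0.23 (adjusted p = 0.147), while a dimmer probe set was at 0.07 ± 0.56. ERCC1, its partner in the same nuclease, was at -0.12 ± 0.16. ERCC5, the nuclease of the 3′ side, was lower in sign at -0.31 ± 0.17, with 7.70, 7.02 and 9.72 array medians in resistant arrays and 9.70, 9.88 and 10.5 in parental arrays. Resistant array 3 there lay just above parental array 1, so the groups overlapped. The helicases of the TFIIH complex, ERCC3 and ERCC2, were at 0.37 and 0.15, the damage verifier XPA at 0.23, and ERCC6, which acts where RNA polymerase is stalled, at 0.12.

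Homologous recombination had 13 measured members with a median of 0.21, and 0 passed the test with all arrays. The largest changes were those of RAD54L, RAD51D, BARD1 and RAD54B. RAD54L, a DNA translocase of recombination, had 7.28, 6.96 and 8.95 array medians in resistant arrays and 4.10, 3.65 and 6.60 in parental arrays. The groups were apart by a small gap to parental array 3, and the change of 0.73 ± 0.24 had an adjusted p of 0.0784. Its relative RAD54B was at 0.59 ± 0.20 (adjusted p = 0.0926), with 13.8, 13.5 and 15.3 array medians in resistant arrays and 11, 6.92 and 11.1 in parental arrays. BARD1, the partner that stabilizes BRCA1, had 25.7, 23.4 and 26.0 in resistant arrays and 18.4, 11.4 and 20.1 in parental arrays, a change of 0.63 ± 0.21 (adjusted p = 0.0836). In both genes the groups were apart and parental array 2 was the lowest, and without it RAD54B was at 0.37 and BARD1 at 0.38. The other 2 probe sets of BARD1 were at 0.21 and 0.31.

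BRCA1 itself was not apart. Its signal was 15.5, 17.0 and 15.5 array medians in resistant arrays and 19.7, 9.02 and 14.9 in parental arrays, so the resistant arrays lay inside the parental range (0.21 ± 0.25). PALB2, a binding partner of BRCA1, was at -0.01 (95% interval -0.33 to 0.30). Among RAD51C, RAD51D, XRCC2 and XRCC3, related proteins that work together in recombination, the signs differed. RAD51D had 7.46, 8.83 and 8.57 array medians in resistant arrays and 5.88, 3.64 and 6.83 in parental arrays (0.65 ± 0.23, adjusted p = 0.108), with no overlap and a value of 0.38 without parental array 2. Its second probe set was at 0.75 ± 0.23 (adjusted p = 0.0672). RAD51C had 11.1, 8.94 and 8.90 in resistant arrays and 15.7, 10.6 and 12.6 in parental arrays (-0.42 ± 0.19, adjusted p = 0.184), where resistant array 1 lay above parental array 2. XRCC3 and XRCC2 were at 0.34 and 0.19. RAD52, an annealing protein, was near the filter at 1.28 to 1.43 array medians in resistant arrays and 0.717 to 1.24 in parental arrays, and its change of 0.49 ± 0.39 had the widest interval of the recombination genes (-0.37 to 1.35). RAD51AP1, a DNA-binding accessory protein, was at -0.02, and the RecQ helicases BLM and WRN at 0.19 and 0.15.

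**Figure D2:**
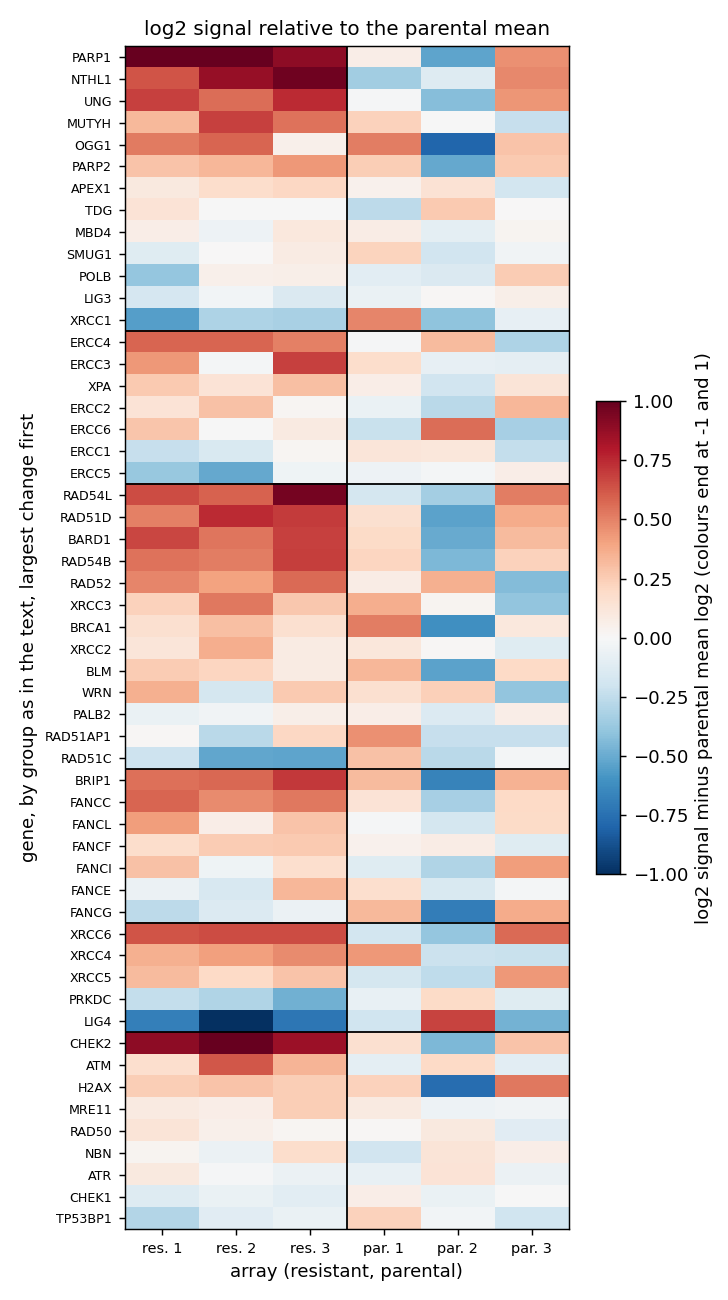
Signal of the 54 measured repair genes (rows, by repair route) on each of the 6 arrays (columns, resistant left and parental right), as log2 signal minus the mean log2 signal of the parental arrays, with the colour scale ending at -1 and 1. The resistant columns resemble each other, while parental array 2 is blue and parental array 3 red for many of the genes that differ.

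In the Fanconi pathway 7 members were measured, the median was 0.23 and none passed the test. BRIP1, the helicase that binds BRCA1, had 16.8, 17.1 and 18.7 array medians in resistant arrays and 14.3, 7.20 and 14.6 in parental arrays. Its groups were apart, and the change of 0.61 ± 0.25 (adjusted p = 0.153) was 0.28 without parental array 2. Its second probe set was at 0.01 ± 0.22 (adjusted p = 0.99). FANCC, a subunit of the core complex, had 8.45, 7.86 and 8.16 in resistant arrays and 6.20, 4.48 and 6.49 in parental arrays (0.53 ± 0.19, adjusted p = 0.0985). FANCF, an adaptor of the same complex, had groups that were apart by a smaller step, with 22.4, 23.7 and 23.8 in resistant arrays and 20.5, 20.9 and 18.3 in parental arrays (0.23 ± 0.13). A second probe set of FANCF overlapped between groups at -0.06 ± 0.15 (adjusted p = 0.836). FANCL, the ubiquitin ligase subunit of the complex, was at 0.26, FANCI, one of the proteins it modifies, at 0.14 and FANCE, another core subunit, at 0.04. FANCG was negative in sign at -0.15 ± 0.26 over a wide parental range, with 10.1, 11 and 11.6 array medians in resistant arrays and 15.1, 7.50 and 15.6 in parental arrays.

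The 5 genes of classical end joining split by sign. XRCC6 and XRCC5 encode Ku70 and Ku80, the ring that slides onto broken ends. XRCC6 was measured at 156, 158 and 158 array medians in resistant arrays, against 88.9, 77.1 and 149 in parental arrays. The resistant arrays were nearly identical, and parental array 3 lay close to them and far from the other parental arrays. The change was 0.64 ± 0.21 (adjusted p = 0.0764) with all arrays and 0.93 (adjusted p = 6.06e-05) without parental array 3. It was 0.45 (adjusted p = 0.204) without parental array 2 and 0.55 (adjusted p = 0.21) without parental array 1, and 5 pseudogenes carry its name. XRCC5 followed the same order of parental arrays, with 165, 152 and 161 in resistant arrays and 117, 111 and 179 in parental arrays, and parental array 3 was the highest of the 6 (0.27 ± 0.17, adjusted p = 0.338; a second probe set gave 0.49 ± 0.16, adjusted p = 0.0867).

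LIG4, the ligase that seals the joined ends, had the most negative change of all 54 members. Its signal was 5.31, 4.06 and 5.16 array medians in resistant arrays, against 7.41, 13.6 and 6.14 in parental arrays. The groups did not overlap, and parental array 2 was high. The change was -0.83 ± 0.28 (95% interval -1.44 to -0.21, adjusted p = 0.0886), and it was -0.49 (adjusted p = 0.214) without parental array 2. A second probe set gave -0.66 ± 0.24 (adjusted p = 0.104). PRKDC, the catalytic subunit of the DNA-dependent kinase that Ku recruits, was the only other member lower in every resistant array, with 39.3, 37.7 and 33.2 array medians in resistant arrays and 44.0, 53.0 and 42.7 in parental arrays (-0.34 ± 0.14, adjusted p = 0.146), and a second probe set was at -0.10 ± 0.17. XRCC4, the partner of LIG4, was read by 4 tested probe sets that did not share a sign (0.42, 0.56, -0.34 and 0.21), and none of the 4 passed the test. The brightest of them had 10.8, 11.2 and 11.7 array medians in resistant arrays and 11.4, 7.29 and 7.24 in parental arrays, with parental array 1 among the resistant ones.

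Neighbours on the chromosome were examined for XRCC4, ERCC5, LIG4 and the called members. LIG4 and ERCC5 both lie on chromosome 13, and of the 10 nearest measured genes around LIG4, 5 on either side, 5 were called lower in resistant cells and 1 higher, where 5.05% and 7.37% of all genes were. Around ERCC5, whose neighbours are partly the same genes, 3 of 10 were lower and 1 higher. The lower ones included the ephrin ligand EFNB2 (log2 change -1.52, adjusted p = 0.00262) and the insulin receptor substrate IRS2 (-1.37, adjusted p = 0.000658), while ABHD13, next to LIG4, was at 0.20 (adjusted p = 0.711). Around XRCC4 on chromosome 5, 1 of the 10 nearest measured genes was called higher and 0 lower. Among those not called, HAPLN1 was at 2.1 (adjusted p = 0.0547), ATG10 at 0.48 and CCNH at 0.04. The only negative change there was that of TMEM161B at -0.07. For the called members there were 2 higher and 0 lower around CHEK2, 1 higher and 1 lower around PARP1, and 0 around NTHL1.

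Break sensing and checkpoint signalling had 9 measured members, with a median of 0.07 and CHEK2 as the 1 called gene. CHEK1, the kinase of the parallel ATR branch, was close to 0 and opposite in sign to CHEK2, with 34.4, 35.9 and 34.9 array medians in resistant arrays and 39.4, 35.9 and 37.5 in parental arrays (-0.10, 95% interval -0.37 to 0.17). ATR, which responds to stalled forks, was at 0.01 (-0.29 to 0.31). ATM, which responds to broken ends, had 10.4, 14.2 and 11.7 in resistant arrays and 8.65, 10.6 and 8.59 in parental arrays (0.38 ± 0.18, adjusted p = 0.2), with an overlap of resistant array 1 and parental array 2. By their brightest probe sets, the 3 genes of the end-resecting complex stayed within a narrow range, MRE11 at 0.13, RAD50 at 0.07 and NBN at 0.05. A dimmer probe set of MRE11 was at 0.75 ± 0.32 (adjusted p = 0.163), and the dimmer tested ones of RAD50 were at -0.20. TP53BP1, which limits resection, had the lowest change of the group at -0.16 ± 0.17, with 10.5, 11.9 and 12.3 in resistant arrays and 15.1, 12.6 and 11.2 in parental arrays, which overlapped. H2AX, the histone variant marked around breaks, had 78.1, 80.5 and 78.2 in resistant arrays and 77.5, 39 and 95 in parental arrays, an even level in resistant cells inside a wide parental range (0.26 ± 0.27).

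How many members passed the test depended on which arrays were kept. The parental SD was larger than the resistant SD for 46 of 54 members (85.2%) and for 70.4% of all genes. Parental array 2 was the lowest of the 6 arrays for 25 members (46.3%) and for 24.2% of all genes. Parental array 3 was the parental array nearest to the resistant mean for 30 members (55.6%) and for 47.4% of all genes.

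Without parental array 3, 12 members were called higher (22.2%, against 16.9% of all genes) and 2 lower (3.7%, against 15.3% of all genes). The 9 genes added on the higher side were UNG, BARD1, RAD51D, RAD54L, RAD54B, FANCC, BRIP1, XRCC5 and XRCC6, and the lower ones were PRKDC and LIG4. They came from base excision, recombination, the Fanconi pathway and end joining, and none from nucleotide excision or break sensing. Without any 1 of the resistant arrays the count called higher was 0. The share over all genes in those fits is not given here. The log2 changes of PARP1, CHEK2 and NTHL1 in them were 0.75 to 1.05, with larger adjusted p-values. Of all 14 genes, XRCC5 was the only one whose groups overlapped when all arrays were kept, through parental array 3.

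**Figure D3:**
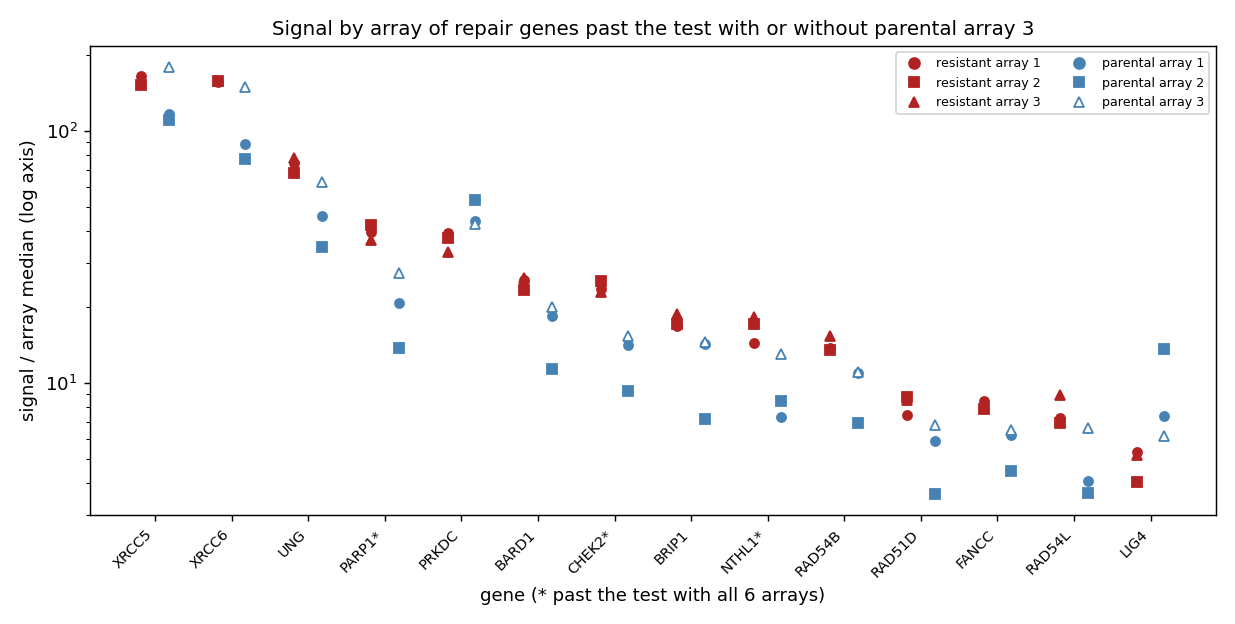
Signal in array medians (log axis) on each array for the 14 repair genes past the test with all 6 arrays (asterisk) or without parental array 3, resistant left in red and parental right in blue, parental array 3 as an open triangle. For 12 genes the resistant arrays are above parental arrays 1 and 2, parental array 3 is the highest parental array for the same 12, and PRKDC and LIG4 run the other way. Of the 14 genes, 11 were chosen because they passed only without parental array 3, so its place here follows in part from that choice.

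Genes of the cell cycle differed between groups too, and parental array 3 stood out among them. A list of 26 cell cycle and replication genes had a median log2 change of 0.40, against 0.02 for all genes. Of the list, 6 were called higher (7.37% of all genes were) and 3 lower (5.05%). The higher ones were MCM4, MCM6, CDC6, CDT1, CCNE2 and E2F1, which act at or before the start of DNA replication. The lower ones were MKI67, CCNB1 and CCNB2, most abundant in G2 and mitosis. The other 17 did not pass the test, so the list as a whole did not divide this way. TOP2A, AURKA, PLK1, BUB1 and BIRC5 were at -0.55 to -0.04, and TPX2, CCNA2 and CDK1 at 0.05, 0.08 and 0.57. TYMS was at 1.55, and MCM2, MCM3, MCM5, MCM7, GINS2, CCNE1, RRM1 and RRM2 were at 0.21 to 0.83. MKI67 had 26.4, 27.7 and 21.9 array medians in resistant arrays and 52.3, 44.1 and 45.4 in parental arrays (-0.90 ± 0.14, adjusted p = 0.00474), and E2F1 had 13.4, 10 and 16.7 in resistant arrays and 8.30, 4.58 and 6.02 in parental arrays (1.10 ± 0.25, adjusted p = 0.0248). The summed signal of the list was 2000, 1910 and 2080 array medians in resistant arrays and 1560, 1150 and 2080 in parental arrays, so parental array 3 was level with the resistant arrays. In parental array 3, 23 of the 26 were above the mean of the other parental arrays, with a median difference of 0.64 on the log2 scale over the list. For the repair genes it was 29 of 54 with a median of 0.06, and for all genes 5506 of 11849 with a median of -0.04. The part of these cell cycle differences in the repair genes was not tested.

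The summed signal of the repair genes was 1470, 1430 and 1500 array medians in resistant arrays and 1280, 1110 and 1420 in parental arrays. In such a sum the bright probe sets weigh most, so it does not describe each gene of a group. Base excision was the group in which all resistant sums were above all parental sums (366, 374 and 383 in resistant arrays, 306, 286 and 329 in parental arrays). Among its bright genes, UNG had means of 73.7 in resistant and 47.9 in parental arrays, and PARP1 39.6 and 20.6. Of its 13 measured genes, 4 had a negative log2 change. End joining had sums of 376, 363 and 369 in resistant arrays and 268, 262 and 384 in parental arrays, with parental array 3 above all others. Its 2 brightest genes, XRCC5 and XRCC6, had resistant means of 159 and 157. The sums of nucleotide excision overlapped, with 58.0, 55.0 and 64.7 in resistant arrays and 59.8, 58.3 and 55.1 in parental arrays.

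**Figure D4:**
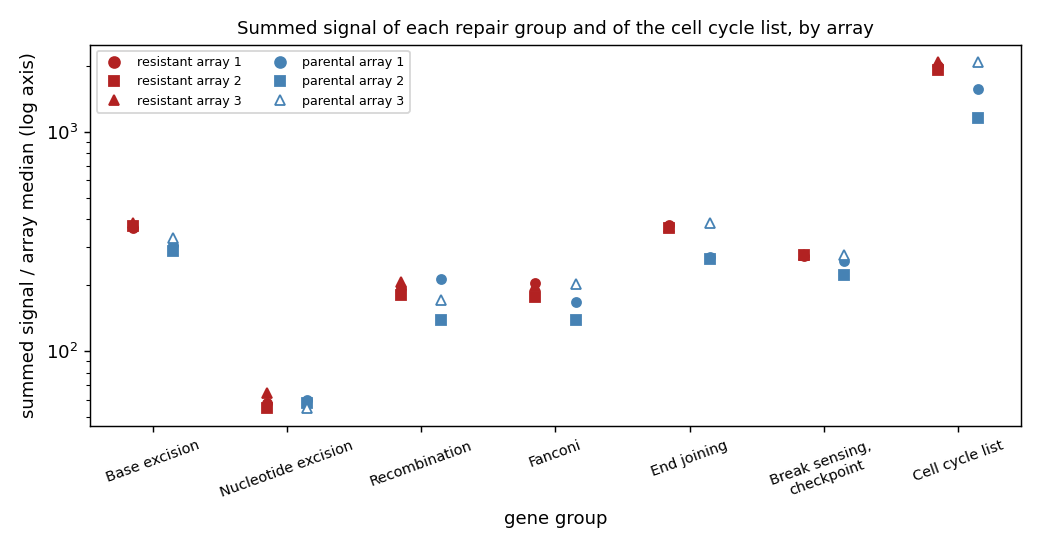
Summed signal of the measured genes of each repair group and of the cell cycle list (log axis, in array medians), 1 point per array, resistant left in red and parental right in blue, parental array 3 as an open triangle. The base excision sums of resistant arrays (366 to 383) are above all parental ones (286 to 329). Parental array 3 is the highest parental array in every group but nucleotide excision and recombination. Bright probe sets weigh most in a sum, and levels are not comparable between groups.

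Further genes of the same pathways, outside the 58, were counted the same way. Of 12 other base excision genes measured, 3 were called higher (7.37% of all genes were) and 0 lower (5.05%): DUT, the enzyme that destroys dUTP before it reaches DNA, FEN1, the nuclease that trims flaps in long-patch repair and in Okazaki fragments, and the replication clamp PCNA. FEN1 had 152, 134 and 146 array medians in resistant arrays and 47.4, 36.2 and 101 in parental arrays (1.36 ± 0.30, 2.57-fold, adjusted p = 0.0211). DUT had 194, 209 and 187 in resistant arrays and 84.0, 70.0 and 153 in parental arrays (1.03 ± 0.24, 2.04-fold, adjusted p = 0.025), and PCNA was at 0.57 ± 0.13 (adjusted p = 0.0219). For FEN1 and DUT, parental array 3 again lay between the other parental arrays and the resistant ones. Of 15 other nucleotide excision genes, CETN2, a centrin that binds the damage sensor XPC, was called higher (0.50), and of 19 other recombination genes RMI2, a subunit of the BLM complex, was (0.99). Among 17 other sensing and checkpoint genes, the ubiquitin ligase RNF8 (0.86) and the fork protein TIPIN (0.81) were called higher. Each of these 7 calls ended under at least 1 alternative, with highest adjusted p-values of 0.142 for RNF8 to 0.232 for TIPIN. Of the rest, 0 of 14 other Fanconi genes and 0 of 4 other end joining genes passed the test in either direction. At an unadjusted p below 0.05 there were 3 among those Fanconi genes and 1 among those end joining genes, where the share over all genes was 30.8%.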

How the data were processed

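Total RNA of 3 resistant and 3 parental Caco2 samples was hybridised to HG U133 Plus 2.0 arrays. The authors deposited 1 linear intensity per probe set and array. The submitters' processing notes name MAS5, without a version, and no source used here gives the scaling target. Of the study's later normalisation, the division by the array median was repeated here and the scaling of each gene was not. Whether replicates were separate cultures is not stated, so the p-values reflect just the spread among these samples, possibly a technical one.

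Control probe sets (62) were left out of 54675, intensities were divided by the array median (a zero was set to 0.05 signal units), and the log2 values of the 26563 probe sets whose mean reached 1 array median were tested with limma 3.58.1 in R 4.3.3 (lmFit, eBayes with an intensity trend, two-sided, Benjamini-Hochberg adjustment, threshold 0.05). A gene was its brightest probe set (11849 genes). Probe sets were named from the platform annotation, and 41091 carried 1 symbol, of which 41037 matched RefSeq (GRCh38.p14), with 1801 carrying several and 11721 none. Members read by a probe set of several transcripts numbered 26. Promoters were taken from RefSeq. With 3 arrays per group, the smallest p of an exact permutation test is 0.1, so none was used. The number of arrays limits the precision. No 2 arrays held identical values, and the test was tried on simulated data.

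The members and lists were chosen with earlier results of these data known. Values on all arrays were given by rule for the called members, the uracil and thymine glycosylases, XRCC4, ERCC5, LIG4 and the members with the highest and lowest change of each route, and for further members chosen after their values were seen. The alternatives were quantile normalization, no further scaling, other filters, floors and offsets, no intensity trend and a replicate block. Further ones were the plain equal-variance t-test, other choices of probe set, leaving out each array, and a 2-fold threshold.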

Additional observations from a re-analysis of the deposited data

How the results depend on the processing

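The count of members called higher, 3 in the report, was 0 without the intensity trend, 0 by the plain t-test and 0 with a 2-fold threshold. Calls fell over all 11849 genes too. There, 873 were called higher in the main fit, 367 without the intensity trend and 120 by the plain t-test. At the 2-fold threshold 5.54% of all genes passed in either direction. It was 0 to 12 when single arrays were left out: 0 without any one resistant array, 1 without parental array 1, 2 without parental array 2 and 12 without parental array 3. The share over all genes was 16.9% without parental array 3 and is not given for the other arrays left out. It was 2 to 4 under the other alternatives, with 4 under the replicate block, where the log2 change of UNG had an adjusted p of 0.0436. The count called lower was 0 under all alternatives but one, with 2 without parental array 3 (leave-one-out range 0 to 2). Same-numbered arrays did not deviate together (correlations of -0.02 in all 3 pairs, none best matched to its own number), so the numbers were not taken to pair the samples. Small changes turned sign in some settings, and the cause was not tested. Without further scaling these were ATR (-0.07), FANCE (-0.04), MBD4 (-0.04), NBN (-0.04), RAD50 (-0.02) and TDG (-0.04). With the mean of all tested probe sets these were CHEK1 (0.06), MBD4 (-0.12), RAD50 (-0.11) and SMUG1 (0.16), and with probe sets of single transcripts FANCF (-0.06), MBD4 (-0.16) and RAD50 (-0.2). With single arrays left out, 17 members turned sign. Their changes ranged over -0.11 to 0.1 for SMUG1, -0.09 to 0.17 for TDG, -0.01 to 0.09 for MBD4, -0.01 to 0.64 for OGG1, -0.16 to 0.06 for POLB, -0.04 to 0.4 for ERCC6, -0.1 to 0.46 for BRCA1, -0.09 to 0.02 for PALB2 and -0.13 to 0.21 for RAD51AP1. They ranged over -0.08 to 0.35 for BLM, -0.05 to 0.31 for WRN, -0.11 to 0.14 for FANCE, -0.49 to 0.04 for FANCG, -0.01 to 0.35 for FANCI, -0.05 to 0.11 for NBN, -0.04 to 0.07 for ATR and -0.12 to 0.52 for H2AX. With 3 arrays per group and no detection calls in the table, RAD52, whose signal lay near the array median, had the widest interval of the 54 measured members.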
